A study of Mus musculus with 6 samples.

Results

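The replication-dependent core histone genes and the linker histone genes of the mouse were read on 6 arrays of cultured embryonic stem cells. The members were the 30 probe sets whose only gene symbol was H1f, H2ac, H2bc, H3c or H4c followed by a number, or an older Hist name, and they stood for 29 of the 22180 genes named on the array. Where a gene had 2 probe sets, which was true of H2ac21 alone, the brighter one was used. By class there were 8 linker histone (H1) genes, 6 H2A, 8 H2B and 7 H4 genes, and no H3c gene had a probe set of its own. The label holds only in part: H1f10 (H1x) is a replication-independent linker histone, H1f6 and H1f7 are known from the testis, H1f8 from the oocyte, and H2ac1 and H2bc1 encode the testis histones TH2A and TH2B.

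Stem cells, grown on gelatin with LIF, were infected with a lentivirus carrying a control shRNA, an shRNA against Chd4 or one against Mbd3. Chd4 encodes the remodeling ATPase of NuRD, a complex that moves nucleosomes and deacetylates histones, and Mbd3 encodes a scaffold subunit of it. Each of these 3 lines was taken as stem cells at day 0, and at day 4 after re-aggregation in low-adhesion plates in differentiation medium with knockout serum replacement, which gave 6 groups of 1 array each. All 6 groups carry a lentivirus and an shRNA; the labels do not state the stem cell line, whether the infected cells were pooled or a clone, or how many cultures stand behind an array. Since each group is a single array, differences between arrays have no replicate check, and neither an error nor a p-value is given for them.

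Core histones wrap DNA into nucleosomes, and linker histones bind where DNA enters and leaves them. Most of these genes sit in clusters and are transcribed in S phase, when new DNA must be packaged, and their mRNAs end in a stem-loop bound by SLBP instead of a poly(A) tail. Variants such as H1x or the testis forms lie outside this program to different degrees. The labelling kit used here primes total RNA, so transcripts without a poly(A) tail can be read.

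The stretch between H2bc1 and H2ac1 and the starts of H4c12 and H2ac20 are shown first. The first is the shared upstream region of the pair of genes with the largest difference between the Chd4 knockdown and the control at day 0, and the other two belong to H4c12, an H4 member whose signal was well above background on all arrays, and to the H2A member other than H2ac1 that was past 2-fold between lines at day 4. All are RefSeq sequence of GRCm38.p6, written 5′ to 3′ on the strand named, and only bases upstream of the annotated starts are given. Capitals mark matches on either strand to any of 4 motifs. CCAAT is the box bound by the factor NF-Y. TATAAA is a core promoter element. ATTTGCAT is the octamer of H2B genes and binds Oct factors. GGTCCG is the core of the H4 element bound by HINFP. No motif contains another.
H2bc1 to H2ac1, chr13:23934157-23934436, plus strand, H2bc1 to the left and H2ac1 to the right: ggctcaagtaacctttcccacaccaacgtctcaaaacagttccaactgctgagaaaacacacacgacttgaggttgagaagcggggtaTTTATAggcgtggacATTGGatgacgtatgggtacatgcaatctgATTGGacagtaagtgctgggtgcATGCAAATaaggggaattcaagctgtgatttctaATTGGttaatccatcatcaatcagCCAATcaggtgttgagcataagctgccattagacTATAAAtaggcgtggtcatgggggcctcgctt
H4c12, chr13:21750554-21750803, minus strand: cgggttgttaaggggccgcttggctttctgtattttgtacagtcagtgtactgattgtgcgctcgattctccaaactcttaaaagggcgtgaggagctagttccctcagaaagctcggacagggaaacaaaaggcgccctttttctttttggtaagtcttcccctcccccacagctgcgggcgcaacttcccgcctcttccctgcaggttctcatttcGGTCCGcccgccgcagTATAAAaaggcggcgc
H2ac20, chr3:96220881-96221071, minus strand, up to where H2bc21 begins: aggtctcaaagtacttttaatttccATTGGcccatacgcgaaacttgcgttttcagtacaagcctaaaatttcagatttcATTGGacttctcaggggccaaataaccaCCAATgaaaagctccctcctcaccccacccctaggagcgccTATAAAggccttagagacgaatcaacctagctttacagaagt
The 280 bases between H2bc1 and H2ac1 held 4 CCAAT, 2 TATAAA and 1 ATTTGCAT. The H4c12 stretch of 250 bases held 1 TATAAA and 1 GGTCCG, and the 191 bases of H2ac20 held 3 CCAAT and 1 TATAAA.

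Of the 29 members, 27 were found in the RefSeq promoter table, 21 of them on chromosome 13, 3 on chromosome 3, 2 on chromosome 6 and 1 on chromosome 15. H4c14 and H2bc21 were not matched. In windows of 300 bases, 250 before and 50 after each start, CCAAT was found at 20 of the 27 (74.1%) against 37.4% of all 32851 promoters, and TATAAA at 16 (59.3%) against 13.6%. The classes differed in what they held. ATTTGCAT was found at 5 of 7 H2B and 3 of 6 H2A promoters and at none of the H1 or H4 ones, against 1.74% of all promoters, and GGTCCG at 5 of 6 H4 promoters, H1f10 and H2bc9, against 8.25% of all. All 6 H2A and all 7 H2B promoters held CCAAT, against 1 of 6 for H4. Neighbouring divergent genes such as H2bc1 and H2ac1 share part of their windows, so these counts are not of separate sequences. A match is a run of letters and says nothing of binding.

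Values are linear intensities that the authors had already background-corrected, normalized and summarized per probe set. A level is compared only within a probe set. A gene entered the comparisons where the mean of its log2 intensity over the 6 arrays reached the median of all probe sets, an intensity of 41.2, which 12926 genes did. Of the 29 members, 13 entered: 3 H1, 4 H2A, 3 H2B and 3 H4 genes. The other 16 read between 19.1 and 63.4 on every array, and without H2bc1 between 19.1 and 52.6, with no difference over 0.73 log2 between any 2 arrays compared. They include H1f1, H1f3, H1f6, H1f7, H1f8, H2ac12, H2ac15, H2bc9, H2bc14, H2bc21, H2bc22, H4c1, H4c2, H4c14 and H4c17, most of which have close copies elsewhere in the clusters. Many histone genes are near-identical, so a probe set named for 1 gene can also bind transcripts of its copies, and which copy was read is uncertain.

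The targeted genes were lower in their own knockdown lines, more so at day 0 than at day 4. Chd4 stood at 29.8% of its control value at day 0 and 71.3% at day 4, and Mbd3 at 43.0% and 75.5%. The median intensity of an array lay between 39.6 and 41.4. The stem cell marker list (8 of 8 measured) summed to 8317 to 8407 at day 0 in the 3 lines and to 2944 in control, 5531 with the Chd4 shRNA and 5514 with the Mbd3 shRNA at day 4. The early neural progenitor list (8 of 8) summed to 452 to 502 at day 0 and to 6641, 848 and 1133 at day 4 in the same order. Neuron markers (7 of 7) had median day differences of 1.71 log2 in control, -0.05 with the Chd4 shRNA and 0.21 with the Mbd3 shRNA, and summed to 2893, 1486 and 1229 at day 4 and to 1238 to 2088 at day 0. Stmn2, named after its values were seen, made up most of the day 0 sums and was lower at day 4 in every line. Over all 6 arrays, fibroblast markers summed to 320 to 434, endoderm markers to 344 to 521, mesoderm markers to 235 to 262 and trophectoderm markers to 365 to 687. The day 4 arrays of the 3 lines therefore differed in cell state as well as in shRNA. In such bulk samples, fewer cells of a type and less RNA per cell cannot be told apart, and the part of cell state in the histone differences below was not tested.

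H2ac1, which encodes the testis H2A TH2A, had the largest difference of all members. It read 299 in control, 686 with the Chd4 shRNA and 316 with the Mbd3 shRNA at day 0, and 74.5, 208 and 68.2 at day 4. The Chd4 knockdown was the highest line on both days, while the Mbd3 knockdown lay close to control on both, and every day 4 value lay below every day 0 value. Day 4 was 4.01-fold lower than day 0 in control, 3.30-fold lower in the Chd4 knockdown and 4.64-fold lower in the Mbd3 knockdown. The Chd4 knockdown was 2.30-fold above control at day 0 and 2.79-fold above it at day 4, and it was 2.17-fold and 3.05-fold above the Mbd3 knockdown. H2ac1 was the only member among the 13 that entered to pass 2-fold between lines at day 0, where 0.665% of all genes were at least 2-fold higher in the Chd4 knockdown than in control.

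H2bc1, the testis H2B TH2B, lies head to head with H2ac1 on the stretch printed above. It read 30.4 in control, 63.4 with the Chd4 shRNA and 33.9 with the Mbd3 shRNA at day 0, and 21.5, 23.0 and 21.8 at day 4. Only the Chd4 knockdown at day 0 was above the array median, so its level elsewhere is a bound. Against the highest array median, 41.4, it was at least 1.53-fold higher in the Chd4 knockdown at day 0 than in either other line at day 0 and than in the same line at day 4. Both genes of the pair therefore had their highest value on the Chd4 knockdown array of day 0. Germ cell markers (5 of 6 measured) summed to 428, 383 and 284 at day 0 in control, the Chd4 and the Mbd3 knockdown, and to 299.6, 1521 and 632 at day 4. The list's median difference from control was 0.18 log2 at day 0 and 0.63 at day 4 in the Chd4 knockdown, and -0.31 and 0.21 in the Mbd3 knockdown. At day 0 the sum and the median of the Chd4 knockdown thus differ in sign. At day 4 both were highest in the Chd4 knockdown. Dazl, named after its values were seen, made up most of that sum (1104). Of the other germ cell markers, Ddx4 was lower there than in control (66.1 against 112.5) and the rest were higher. H2ac1 too was highest in that line at day 4, but it was lower than at day 0, whereas the germ cell sum was higher. The part of germ cell markers in the H2ac1 and H2bc1 differences was not tested. The other testis and oocyte members stayed dim: H1f6 read 24.7 to 35.0, H1f7 28.0 to 34.0 and H1f8 25.2 to 31.9.

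**Figure D1:**
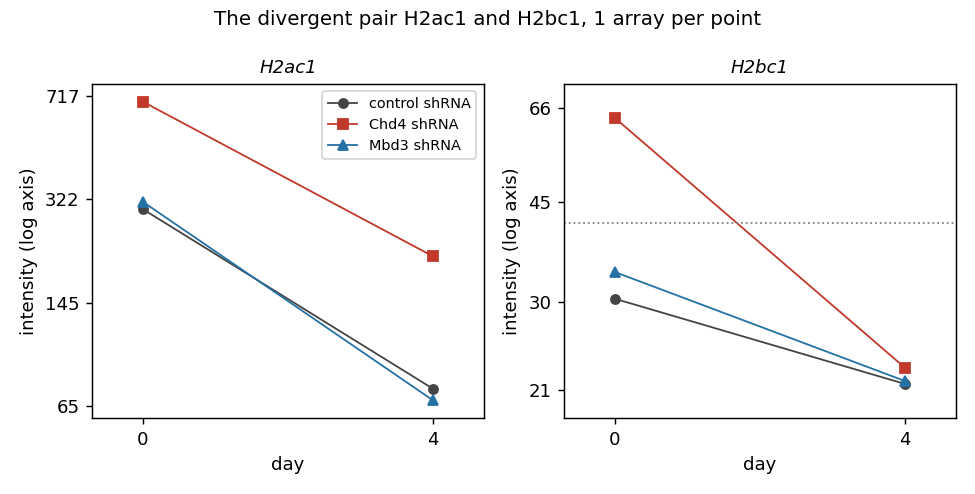
Intensity (log axis) of H2ac1 and H2bc1 against day, 1 array per point, with a line for each shRNA and a dotted line at 41.4, the highest array median. The Chd4 knockdown at day 0 has the highest point of both genes, 686 and 63.4, and H2bc1 lies below the dotted line on the other 5 arrays.

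Among the linker histones, H1f10 differed most. It read 234 at day 0 and 454 at day 4 in control, 311 and 174 in the Chd4 knockdown, and 204 and 179.9 in the Mbd3 knockdown. Control at day 4 was thus the highest of the 6 values and the day 4 knockdowns were the 2 lowest. Day 4 was 1.94-fold higher than day 0 in control, 1.79-fold lower in the Chd4 knockdown and 1.13-fold lower in the Mbd3 knockdown. At day 4 H1f10 was 2.61-fold lower in the Chd4 knockdown and 2.52-fold lower in the Mbd3 knockdown than in control.

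H1f5 (H1.5) and H1f2 (H1.2) are somatic linker histones of the main cluster. H1f5 read 241 and 266 at day 0 and day 4 in control, 249.6 and 152 in the Chd4 knockdown, and 268 and 154 in the Mbd3 knockdown. The 3 day 0 values and the control day 4 value lay close together and both knockdowns at day 4 lay below them, 1.75-fold and 1.73-fold under control. H1f2 read 262 and 328 in control, 219 and 226 in the Chd4 knockdown, and 275 and 194 in the Mbd3 knockdown. Here the Chd4 knockdown was low on both days, and the Mbd3 knockdown was low only at day 4. The other 5 H1 genes did not enter.

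The H2A members other than H2ac1 were highest in control at day 4. H2ac21 read 179 and 408 in control, 159 and 216 in the Chd4 knockdown, and 197 and 234 in the Mbd3 knockdown. It was the only member at least 2-fold higher at day 4 than at day 0 in control (2.27-fold), and the knockdowns were 1.35-fold and 1.19-fold higher. H2ac20 read 274 and 393 in control, 276 and 181 in the Chd4 knockdown, and 253 and 202 in the Mbd3 knockdown. Its 3 day 0 values lay within 253 to 276, and at day 4 control was above and both knockdowns below that range, 2.17-fold and 1.94-fold under control. H2ac10 read 1698 and 2394 in control, 1566 and 1506 in the Chd4 knockdown, and 1782 and 1632 in the Mbd3 knockdown. Control at day 4 again stood apart, and the other 5 values spanned 1506 to 1782. The second probe set of H2ac21 stayed between 23.8 and 26.1 on all arrays and so did not show the difference.

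No H2B member that entered reached 2-fold in any of the 9 comparisons. H2bc12 read 436 and 499 in control, 394 and 314 in the Chd4 knockdown, and 475 and 377 in the Mbd3 knockdown. H2bc18 read 191 and 192 in control, 232 and 138 in the Chd4 knockdown, and 204 and 171 in the Mbd3 knockdown. H2bc3 read 224 and 221 in control, 182 and 156 in the Chd4 knockdown, and 205 and 177 in the Mbd3 knockdown. In all 3 the Chd4 knockdown at day 4 was the lowest array, and day 4 lay below day 0 in both knockdowns, with log2 differences from -0.75 to -0.21. In control the 3 differences lay between -0.02 and 0.19.

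Most mouse H4 gene copies encode an identical protein, the partner of H3 in the nucleosome core. H4c12 read 2486 and 3211 in control, 2472 and 2188 in the Chd4 knockdown, and 2880 and 2298 in the Mbd3 knockdown. Control at day 4 was the highest array and both knockdowns at day 4 were the lowest, as for H2ac20. H4c8 read 40.5 and 67.1 in control, 61.3 and 82.5 in the Chd4 knockdown, and 48.3 and 73.2 in the Mbd3 knockdown. It was higher at day 4 in every line, and the Chd4 knockdown was the highest line on each day. H4c9 read 46.6 and 83.0 in control, 71.7 and 72.9 in the Chd4 knockdown, and 59.5 and 69.1 in the Mbd3 knockdown. H4c8 and H4c9 lay near the entry level of 41.2, where small additive offsets weigh most; against the highest array median, H4c8 was at least 1.62-fold higher at day 4 than at day 0 in control. H4c14 lay just under that level with 32.4 and 44.7 in control, 39.5 and 52.6 in the Chd4 knockdown, and 37.6 and 41.9 in the Mbd3 knockdown.

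**Figure D2:**
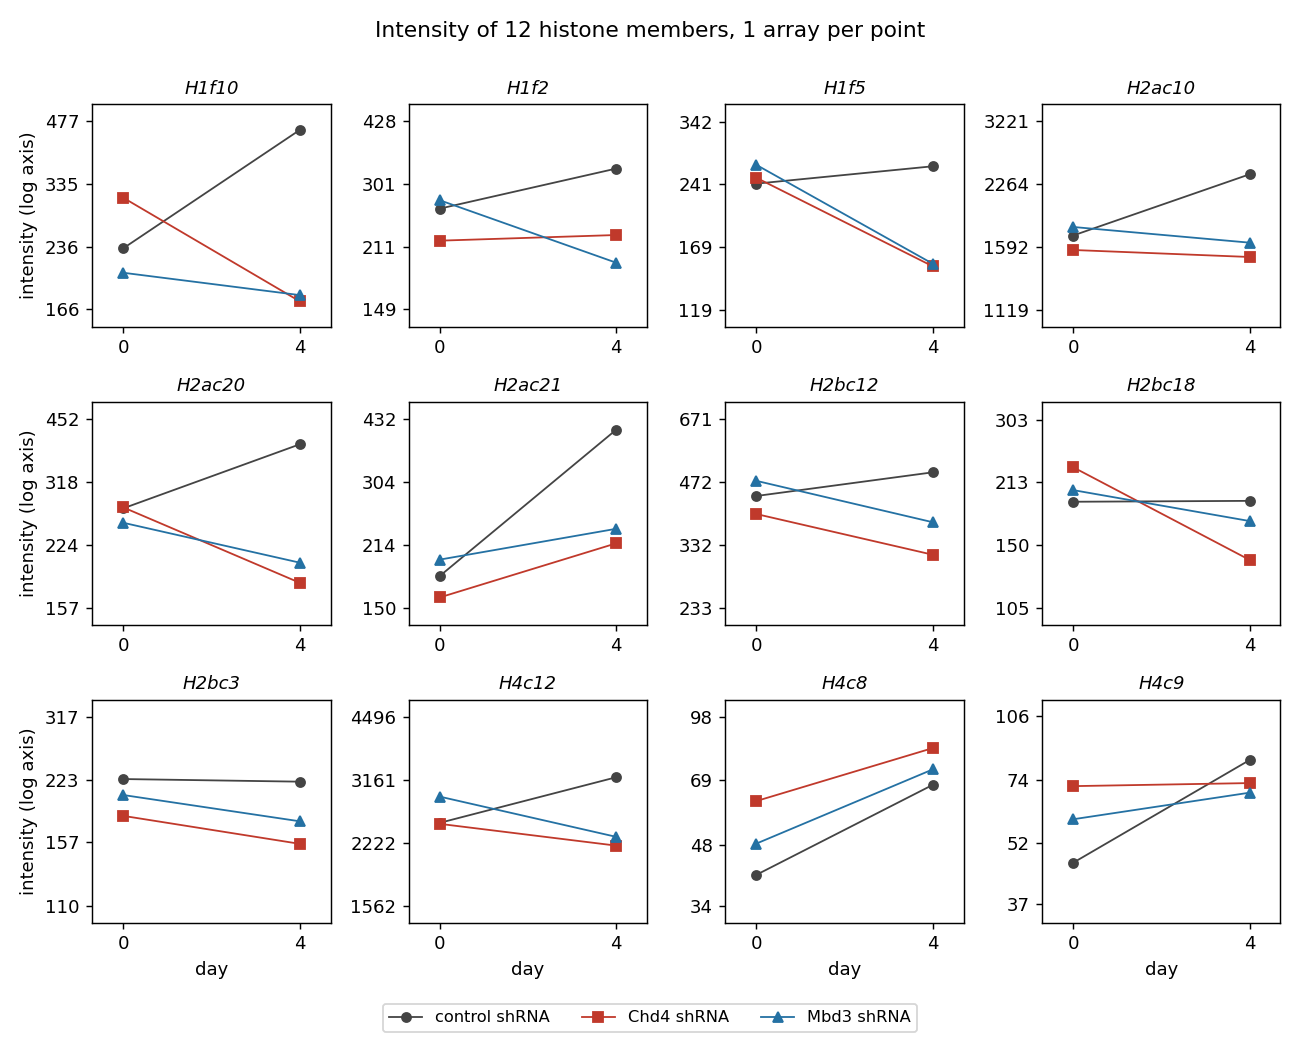
Intensity (log axis, each panel spanning the same fold range around its own centre) of 12 of the 13 members that entered against day, 1 array per point and a line for each shRNA; H2ac1 has its own plot. Control at day 4 is the highest array for H1f10 (454), H2ac10 (2394), H2ac20 (393) and H2ac21 (408), whereas H4c8 is higher at day 4 in all 3 lines.

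Between day 0 and day 4 the members' median difference had opposite signs in control and in the knockdown lines. Not every member followed it: H2ac1 and H2bc3 were lower, and H2ac21, H4c8 and H4c9 higher, at day 4 in every line. In control 11 of the 13 were higher at day 4, against 49.7% of all 12926 genes, with a median log2 difference of 0.37 beside -0.00 over all genes. H1f10, H2ac21, H4c8 and H4c9 were at least 1.5-fold higher (16.8% of all genes) and H2ac1 alone was lower by that much (11.7%), and H2ac21 was the single member at least 2-fold higher (7.92%). The lowest value of an array was 17.4 to 17.6, and an added constant is neither stated nor excluded by the labels. With 16 subtracted from each, H1f10, H4c8 and H4c9 also passed 2-fold in control, and with the mean over its 2 probe sets H2ac21 did not. In the Chd4 knockdown 4 of 13 were higher and 9 lower at day 4 (48.7% and 51.3% of all genes), with a median of -0.23 beside -0.01; 5 were at least 1.5-fold lower (4.27%) and none higher by that much (5.84%). In the Mbd3 knockdown 3 of 13 were higher and 10 lower (45.7% and 54.3%), with a median of -0.25 beside -0.03; 2 were at least 1.5-fold lower (4.8%) and H4c8 was higher by that much (5.71%). H2ac1 was the single member at least 2-fold lower in each line, against 5.02%, 1.17% and 1.14% of all genes. By class, the medians in control, the Chd4 and the Mbd3 knockdown were 0.32, -0.72 and -0.51 for H1, 0.51, -0.33 and -0.23 for H2A, 0.01, -0.33 and -0.25 for H2B, and 0.73, 0.02 and 0.22 for H4. Over all 29 members, dim ones included, the medians were 0.19, -0.06 and -0.14.

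At day 0 the members' median differences from control were small. In the Chd4 knockdown 7 of the 13 members were higher and 6 lower than in control (48.9% and 51.1% of all genes), with a median of 0.01. H2ac1, H4c8 and H4c9 were at least 1.5-fold higher as measured (3.99%), of which H4c8 was at least 1.48-fold higher against the highest array median, and none was lower by that much (3.62%). In the Mbd3 knockdown 10 of 13 were higher (50.3%) with a median of 0.09, and no member was 1.5-fold higher or lower (3.0% and 2.0% of all genes) or 2-fold higher or lower (0.379% and 0.309%). Over all 29 members the medians in the Chd4 and the Mbd3 knockdown were 0.04 and 0.09. Both comparisons use the same control array.

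At day 4 most members were lower in both knockdowns than in control. In the Chd4 knockdown 2 of 13 were higher and 11 lower (47.1% and 52.9% of all genes), with a median of -0.55 beside -0.03 over all genes; 6 were at least 1.5-fold lower (14.7%), H1f10 and H2ac20 at least 2-fold lower (6.27%) and H2ac1 at least 2-fold higher (4.94%). In the Mbd3 knockdown 1 of 13 was higher and 12 were lower (45.3% and 54.7%), with a median of -0.48 beside -0.04; 5 were at least 1.5-fold lower (12.4%) H1f10 was at least 2-fold lower (4.51%) and no member at least 2-fold higher (3.54%). Class medians in the Chd4 and the Mbd3 knockdown were -0.81 and -0.79 for H1, -0.79 and -0.68 for H2A, -0.50 and -0.32 for H2B, and -0.19 and -0.26 for H4. H4c12, the brightest H4 member, had -0.55 and -0.48. These 2 comparisons and the day difference in control share the control array of day 4, so they are not separate evidence of its level. Over all 29 members the medians were -0.19 and -0.17.

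The array medians over the genes that entered differed by 0.16 log2 in the control day comparison and by -0.12 and -0.13 in the Chd4 and Mbd3 comparisons at day 4, and centring each array on its own median subtracts these values. After it, 9 of 13 members were higher at day 4 in control (median 0.21, with 37.5% of all genes higher). The sign of H1f5 and H2bc18 turned in the control day comparison, and that of H4c9 in the Chd4 knockdown day comparison. At day 4, 11 of 13 were lower than control in each knockdown (medians -0.43 and -0.35), where 41.5% and 40.6% of all genes were lower, and the sign of H2ac1 turned in the Mbd3 knockdown. The shared probe sets and gene lists below were not centred.

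Among the members, the 2 knockdown lines differed most from each other at H2ac1 on both days. At day 0, 6 members were higher and 7 lower in the Chd4 than in the Mbd3 knockdown (49.3% and 50.7% of all genes), with a median of -0.10, and H2ac1 and H1f10 were at least 1.5-fold higher (3.15%) and none lower by that much (3.88%). H2ac1 alone was past 2-fold there, against 0.572% of all genes that far up and 0.48% that far down. At day 4, 4 were higher and 9 lower (50.8% and 49.2%), with a median of -0.07. The 12 members other than H2ac1 lay between -0.31 and 0.22 log2 in that comparison, while H2ac1 was 1.61 log2 higher and the single member past 2-fold (0.658%).

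**Figure D3:**
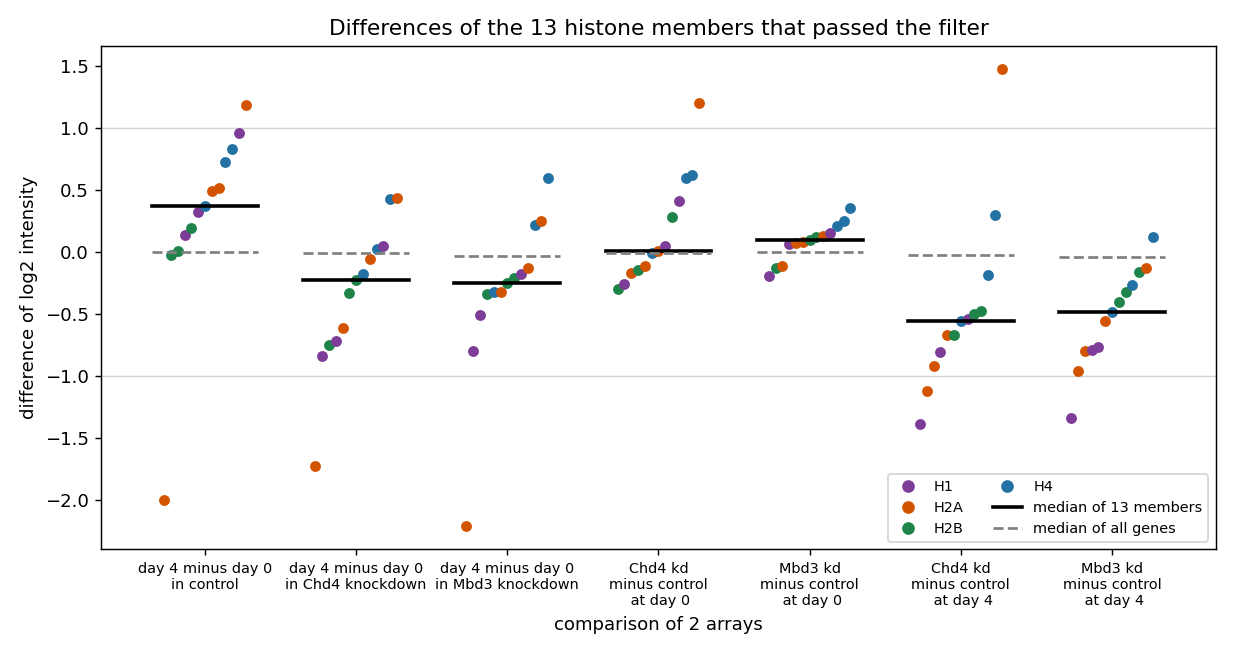
Difference of log2 intensity between 2 arrays (vertical axis) for the 13 members that entered, as points coloured by class, in 7 comparisons (horizontal axis); solid bars are the members' medians and dashed bars the medians of all 12926 genes. The members' median is 0.37 for day 4 minus day 0 in control and -0.55 and -0.48 for the Chd4 and Mbd3 knockdown minus control at day 4, and the lone low points on the left, down to -2.21, are H2ac1.

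A limma model with additive effects of shRNA and day over the 6 arrays had 2 residual degrees of freedom, and it counts any day difference that is unequal between lines as error. It called no gene at a Benjamini-Hochberg adjusted p under 0.05 for day, Chd4 knockdown or Mbd3 knockdown, that is 0% of the 12926 genes each. At an unadjusted p under 0.05 it passed 1962, 1014 and 647 genes. For day, 7.98% of all genes passed as higher and 7.2% as lower. These shares were 4.14% and 3.71% for the Chd4 knockdown, and 2.81% and 2.2% for the Mbd3 knockdown. Of the 13 members H2ac1, H2ac21 and H4c8 passed at that level for day, H2ac1, H2bc3 and H4c8 for the Chd4 knockdown, and none for the Mbd3 knockdown. H2ac1 had a limma day effect of -1.98 ± 0.15 log2 (SE; adjusted p = 0.098), a Chd4 knockdown effect of 1.34 ± 0.18 (adjusted p = 0.61) and a Mbd3 knockdown effect of -0.02 ± 0.18 (adjusted p = 0.98). H4c8 had a limma day effect of 0.59 ± 0.13 (SE; adjusted p = 0.21) and H2ac21 one of 0.62 ± 0.22 (adjusted p = 0.30). For H1f10, whose day difference ran opposite ways in control and the Chd4 knockdown, the limma day effect was -0.02 ± 0.36 (SE; adjusted p = 0.98). With the 2 control arrays left out, the same limma model called 683 of the 12926 genes for day. In that limma fit 2 of the 13 members were called, H2ac1 (-1.97 ± 0.16, adjusted p = 0.0020) and H1f5 (-0.76 ± 0.14, adjusted p = 0.022). That fit has 4 arrays of the 2 knockdown lines, leaves 1 residual degree of freedom and says nothing of control. Its error comes from how far apart the day differences of the 2 lines were, pooled in part over genes. It is not a spread between replicates. Without the Chd4 or without the Mbd3 knockdown arrays, the limma model called 0 genes for day, with 1628 and 794 at an unadjusted p under 0.05.

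Many more histone transcripts are read by probe sets that carry several histone symbols and so are no members. There were 37 of these, 24 entered, and 3 of the 24 repeated another within 0.02 log2 on every array, which leaves 21. In control 18 of the 21 were higher at day 4 than at day 0, against 49.7% of all genes, with a median of 0.29. The Chd4 knockdown had a median of -0.01 and the Mbd3 knockdown one of -0.18. At day 4, 14 of 21 were lower than control in the Chd4 knockdown (median -0.28, with 52.9% of all genes lower). In the Mbd3 knockdown 16 of 21 were lower (median -0.35, with 54.7% of all genes lower). At day 0, 12 and 16 of 21 were higher than control in the Chd4 and Mbd3 knockdown (48.9% and 50.3% of all genes). The medians there were 0.02 and 0.10, with ranges from -0.42 to 1.03 and from -0.25 to 0.69. Of the shared H2A sets all 7 were higher at day 4 in control, and 6 of 7 were lower in each knockdown than in control at day 4, with medians of -0.50 and -0.41. One of them, with 10 H2A symbols, read 1148 and 1784 in control, 1194 and 1004 in the Chd4 knockdown, and 1226 and 1020 in the Mbd3 knockdown. That set has its single high value in control at day 4, as H2ac10 and H2ac20 do. The H3 class, which the members lack, was read by 5 such sets, and 4 of 5 were higher at day 4 in control (median 0.49). At day 4 the Chd4 knockdown was higher than control in 3 of 5 (median 0.25). The Mbd3 knockdown was lower in 3 of 5 (median -0.32). Most H3 sets were dim, so these counts and medians are weak. The 3 sets higher in the Chd4 knockdown had mean intensities of 51.7 to 79.8. The set behind the control median read 37.5 at day 0, under the highest array median. The brightest H3 set, with a mean of 136.5, was 0.33 log2 higher at day 4 in control. It was 0.31 and 0.40 log2 lower in the Chd4 and Mbd3 knockdown than in control at day 4. These shared sets read transcripts that can overlap with those of the members on the same arrays, so they are not independent of them.

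**Figure D4:**
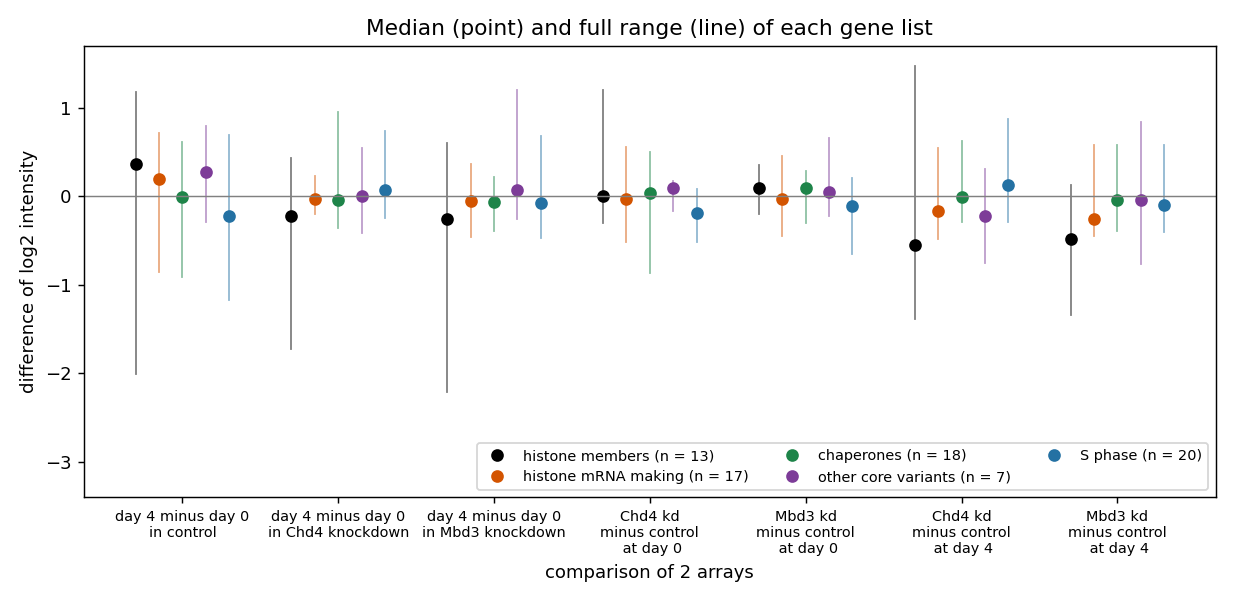
Median (point) and full range (line) of the difference of log2 intensity (vertical axis) of 5 gene lists in 7 comparisons of 2 arrays (horizontal axis). The histone members have medians of 0.37, -0.55 and -0.48 for day 4 in control and for the Chd4 and Mbd3 knockdown at day 4, and the other lists stay between -0.25 and 0.27 in all 7 comparisons.

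Genes that make histone mRNA, from the activator NPAT to the cleavage factor subunits and the decay enzymes, had medians nearer to 0 than the members in the 3 comparisons that use the control array of day 4. Of 18 listed, 17 entered and none reached 2-fold in the comparisons of days or of a knockdown with control. Their median was 0.20 at day 4 in control, where Cramp1l was the highest (0.72) and Zfp473, a zinc finger protein of the U7 particle, the lowest (-0.86). At day 4, 13 of 17 were lower in each knockdown than in control (52.9% and 54.7% of all genes). The medians were -0.16 and -0.25. Shifts between the array medians were -0.12 and -0.13 there and 0.16 for day in control, so these list medians depend on centring. The lowest were Eri1, an exonuclease that trims the stem-loop end, in the Chd4 knockdown (-0.49) and Cpsf3, the endonuclease that cuts the transcript, in the Mbd3 knockdown (-0.45). Upf1, a helicase of mRNA decay, was the highest in both (0.55 and 0.58).

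Histone chaperones, which carry new histones to DNA, had medians from -0.07 to 0.09 in the 7 comparisons plotted. Of 19 listed, 18 entered, with medians of -0.00 at day 4 in control and of -0.01 and -0.05 in the Chd4 and Mbd3 knockdown against control at day 4, and none reached 2-fold. Daxx, a chaperone of H3.3, was the lowest in control (-0.91), and Ipo4, an importin for histones, was 0.87 log2 lower in the Chd4 knockdown than in control at day 0. Replication-independent core variants (7 of 9 entered) had medians of 0.27 in control and of -0.22 and -0.04 in the knockdowns against control at day 4. H2az2, one of the H2A.Z genes, was the lowest of them in both (-0.75 and -0.77), and Macroh2a2, a macroH2A gene, was the single variant past 2-fold, at least 2.19-fold higher at day 4 (90.7) than at day 0 (39.5, under the highest array median) in the Mbd3 knockdown.

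The S phase and licensing list holds genes of the phase in which most of the members are normally transcribed. Its median had the other sign in control. Of 22 listed, 20 entered. Of the 20, 14 were lower at day 4 than at day 0 in control, against 50.3% of all genes, with a median of -0.22. Ccne1, the cyclin of the start of S phase, was 1.17 log2 lower there and the single gene past 2-fold. Gins2 was the highest (0.69). At 1.5-fold 2 genes of the list were higher and 1 was lower (16.8% and 11.7% of all genes). At day 4, 13 of 20 were higher in the Chd4 knockdown than in control (47.1% of all genes), with a median of 0.13. In the Mbd3 knockdown 13 of 20 were lower (54.7% of all genes), with a median of -0.10. The shift of -0.13 between the array medians there is larger than this value, so its sign depends on centring. The members had medians of 0.37 for day in control and of -0.55 and -0.48 in the Chd4 and Mbd3 knockdown at day 4. As measured, the medians of the 2 lists differed in sign in the first 2 of these comparisons. The part of S phase in the histone differences was not tested. At day 0, 17 and 18 of 20 were lower than control in the Chd4 and Mbd3 knockdown (51.1% and 49.7% of all genes). The medians were -0.19 and -0.10. Rrm2, a ribonucleotide reductase subunit, was the lowest in both (-0.52 and -0.65).

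Across the 6 arrays the mean of log2 intensity over all 29 members was 6.25 and 6.42 in control at day 0 and day 4, 6.40 and 6.22 in the Chd4 knockdown, and 6.36 and 6.17 in the Mbd3 knockdown. This mean takes in H2ac1 and the 16 members that did not enter. At day 0 it was higher in the Chd4 knockdown than in control, where the 13 that entered had a median difference of 0.01. The 10 other genes with the highest Pearson correlation to that mean over the 6 arrays, which share normalization, were Fam162a (0.99), Taco1 (0.99), Uhmk1 (0.98), Rnf113a2 (0.98), Gm5451 (0.98), Tmem268 (0.98), Prkar1a (0.98), Ufl1 (0.97), Ndufa4l2 (0.97) and Gdap2 (0.97). Fam162a, the closest, read 333 and 668 in control, 558 and 296 in the Chd4 knockdown, and 459.9 and 239 in the Mbd3 knockdown. With 6 arrays and 12926 genes such correlations are a description only.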

How the data were processed

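The 6 samples of mouse embryonic stem cells, 1 per group, were read on Mouse Gene 2.0 ST arrays from total RNA. The deposited values are linear intensity values per probe set; GeneSpring GX 12.6.1 was the authors' software per the series' design text, and per the submitters' processing notes they were made with RMA. Of 34351 probe sets, 23521 have 1 gene symbol, 1814 several and 9016 none in the platform annotation. A log2 was taken with no further scaling. Lower bounds use the highest array median, 41.4. Differences between arrays carry no test. The additive model was fitted with limma 3.58.1 (R 4.3.3) on all 12926 genes with Benjamini-Hochberg adjustment and was tested on simulated data. Tables were made with pandas 2.3.3 and numpy 2.4.6 (Python 3.11.15).

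The members and lists were chosen with earlier results of these data known. Values on all arrays are given for members past 2-fold in any of 9 comparisons, for entered linker histones and for the 2 largest differences in each direction per class in the control day comparison. Other genes named are the targets, list genes past 2-fold or at a list's extreme, the 10 most like the members, and single markers named after their values were seen. The remaining members are shown because they entered. List genes beyond those counted as entered were not analysed here. For the array annotation the sources used here name no genome build, so coordinates belong to RefSeq's GRCm38.p6 alone.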

Additional observations from a re-analysis of the deposited data

Results flagged for a closer look

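Some members had a day difference in a knockdown line opposite to that in control. With 1 array per group this difference of differences was not tested, and all of it shares the control arrays. For H1f10 the day difference in the Chd4 knockdown minus that in control was -1.80 log2 (-0.84 against 0.96), and for the Mbd3 knockdown it was -1.14 (-0.18 against 0.96). For H2ac20 the Chd4 knockdown value was -1.13 log2 (-0.61 against 0.52). The median over the 13 members that entered differed in the same way, by -0.60 log2 for the Chd4 knockdown (-0.23 against 0.37) and by -0.62 for the Mbd3 knockdown (-0.25 against 0.37). These values all rest on the single control array of day 4, on which neural progenitor markers summed to 6641 against 848 and 1133 in the knockdowns; the part of that difference was not tested.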

How the results depend on the processing

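No paired analysis was possible because each group has a single array, other than the additive limma model of shRNA and day, in which each line already enters with both of its days. Counts of members past 2-fold in either direction were 2, 1 and 1 for day in control, Chd4 and Mbd3 knockdown, 1 and 0 for the knockdowns against control at day 0, 3 and 1 at day 4, and 1 and 1 between the knockdowns. After subtracting 16 from each value, the control day count became 5 and the Mbd3 count at day 4 became 2; with the mean over a gene's probe sets the control day count became 1. With no filter, or with one on the brighter array, the Chd4 knockdown day count and the Chd4 count at day 0 became 2 each. At 1.5-fold the counts became 5, 5 and 3 for day, 3 for Chd4 at day 0, 7 and 5 at day 4, and 2 between the knockdowns at day 0. Without H2ac1, an alternative chosen after seeing the data, the control day count became 1, and the other day counts, the Chd4 count at day 0 and both counts between the knockdowns became 0. Medians became 0.19, -0.057 and -0.14 (day) and -0.19 and -0.17 (day 4) with no filter, 0.21, -0.43 and -0.35 (control day and day 4) after centring, and 0.010 between the knockdowns at day 0 with the brighter-array filter. The limma day count was 683 without the control arrays, against 0; this fit has fewer samples, and the cause was not tested. Of the other alternatives, 43 counts, 45 medians and 14 limma counts stayed within 1.5 times or 0.1 log2. Protein identity between members was not computed. At intensities near 41.2, signal over background limits what can be seen.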
